A study of Mus musculus with 12 samples.

Results

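The fibrillar collagen genes Col1a1, Col1a2, Col2a1, Col3a1, Col5a1, Col5a2, Col11a1 and Col11a2 were followed in the heart of the mouse embryo at the stage when the valve cushions begin to fill with mesenchyme. They were found by their symbol in the annotation of the Illumina Mouse WG-6 v2 bead array. These 8 genes, of 19057 measured, were covered by 19 of the 34885 probes that carry a single gene symbol, and for each gene the brightest probe by its mean over the 12 arrays was used. Total RNA came from the atrioventricular canal (AVC), the segment in which the atrioventricular cushions form, and from the primary ventricle, labelled LV. Both tissues were dissected from Mus musculus embryos on embryonic days 9 (E9) and 10 (E10), which gave the groups AVC E9, AVC E10, LV E9 and LV E10 with 3 arrays each. The embryos carried no allele or treatment named in the labels, and neither their strain nor their number per sample is stated. The pieces were whole tissue, in which fewer cells of a type and less RNA per cell cannot be told apart.

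Fibrillar collagens are long proteins that wind as triplets into rope-like helices and then pack side by side into the banded fibrils that give tissue its tensile strength. Type I (chains from Col1a1 and Col1a2) and type III (Col3a1) make the bulk of fibrils in skin, vessels and adult valves, and type II (Col2a1) is the main fibril protein of cartilage that is also made transiently in many embryonic epithelia and in the early heart. Types V (Col5a1, Col5a2) and XI (Col11a1, Col11a2) are minor chains that seed fibrils and limit their width. In the developing heart, cushion cells at first lie in a gel rich in hyaluronan, and the collagen-rich layers of the valve leaflets are built later.

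Promoter sequences were read from RefSeq on build GRCm38.p6, which held entries for 5 of the genes. Those of Col1a2 (chr6:4505368-4505617, + strand), Col3a1 (chr1:45311288-45311537, + strand) and Col5a1 (chr2:27886175-27886424, + strand) are shown as the 250 bases before the annotated start, 5′ to 3′, to set a type I, a type III and a type V gene side by side. Capitals mark CCAAT (the site of the factor NF-Y), GGGCGG (the GC box of Sp1) and TATAAA (the TATA box) on either strand.
Col1a2: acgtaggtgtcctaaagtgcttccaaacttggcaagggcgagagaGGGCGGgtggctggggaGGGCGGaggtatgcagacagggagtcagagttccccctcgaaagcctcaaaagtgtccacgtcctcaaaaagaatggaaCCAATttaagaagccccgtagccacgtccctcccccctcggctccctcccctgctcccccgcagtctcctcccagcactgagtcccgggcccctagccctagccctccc
Col3a1: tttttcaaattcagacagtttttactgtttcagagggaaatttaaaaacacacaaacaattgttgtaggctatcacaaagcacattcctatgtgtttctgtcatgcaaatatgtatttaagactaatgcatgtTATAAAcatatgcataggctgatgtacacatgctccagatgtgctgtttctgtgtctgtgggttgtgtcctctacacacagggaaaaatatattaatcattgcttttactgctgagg
Col5a1: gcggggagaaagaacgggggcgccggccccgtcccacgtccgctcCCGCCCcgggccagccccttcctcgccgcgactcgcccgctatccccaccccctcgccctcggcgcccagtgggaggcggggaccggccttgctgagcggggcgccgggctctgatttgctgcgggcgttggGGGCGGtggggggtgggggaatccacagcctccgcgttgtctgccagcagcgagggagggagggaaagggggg
The Col1a2 stretch held 1 CCAAT and 2 GGGCGG, and the Col5a1 stretch held 2 GGGCGG. The Col3a1 stretch held neither, but carried 1 TATAAA that began 117 bases before the start, and its base composition was 35.2% G and C against 62.0% for Col1a2, 76.4% for Col5a1 and a median of 52.4% over all promoters. Of 32851 promoters of the same length, 33.85% held CCAAT, 32.7% GGGCGG and 12.4% TATAAA. The E box CANNTG was present 4 times in Col3a1 and in 66.2% of all promoters. A core bound by Sox factors, ACAAAG, was present in Col3a1 and in 16.5% of all promoters. CACCTG, a form of the E box bound by Snail factors and so also counted within CANNTG, was found in none of the 5 collagen promoters and in 17.2% of all. Col1a1, Col2a1 and Col5a2 had no entry. Matches are letters in a window and were not tested as sites.

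Values are background-subtracted intensities scaled to the same mean of 386 on every array. Each array was given a background limit equal in size to its lowest, negative reading, which was 22.4 to 29.6, and precision is limited by having 3 arrays a group. Marker genes were read beside the tissue labels. These lists were chosen with earlier results of these data known, so they are no separate check of the labels. All 5 AVC myocardium genes on the list, among them the repressor Tbx2, were higher in AVC than in LV at E10, and 3 of 5 at E9. Of 8 chamber myocardium genes 2 were lower in AVC at E9, 2 at E10 and 4 averaged over both ages. The others were not called. Nppa, the atrial natriuretic peptide gene of chamber muscle, was lower in AVC at both ages. For cushion mesenchyme, 9 of 11 measured markers were higher in AVC averaged over both ages. These comparisons called 1.02% of all genes at E9, 2.3% at E10 and 5.47% averaged. Across 8340 genes above background on all arrays, 2 of the E10 arrays stood nearer to an E9 array than to their own group: AVC E10 replicate 1, closest to AVC E9 replicate 2 with a correlation across genes of 0.979, and LV E10 replicate 1, closest to LV E9 replicate 2 with 0.969. AVC E9 replicate 2 was likewise closest to AVC E10 replicate 1, and it was left in when the set-apart E10 arrays were left out. Values that move most without these E10 arrays are given both ways. These arrays were picked for their nearness to E9, so leaving them out favours larger differences with age. Calls gained that way are no separate support. Without both, calls over all genes for age went from 105 to 999 in AVC and from 452 to 2676 in LV.

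Of the 8 genes, Col2a1 fell and Col3a1 rose between E9 and E10 when both tissues were averaged, and these were the calls of that comparison. Col2a1 was 6.04-fold lower at E10 (log2 difference -2.60 ± 0.35 SE, limma with Benjamini-Hochberg adjustment over 19057 genes, adjusted p = 0.00740), and Col3a1 was 2.78-fold higher (1.48 ± 0.20, adjusted p = 0.00740). The same test called 8.1% of all genes. Col1a1, Col1a2 and Col5a2 had positive differences of 1.58, 1.46 and 1.09 that missed the threshold, with adjusted p of 0.211, 0.0685 and 0.0570. The size for Col1a2 rests in part on LV E9, where no array was above background. Col5a1, Col11a1 and Col11a2 had differences of -0.37, 0.39 and -0.29. The median over the 8 genes was 0.74, beside 0.00 over all genes tested. Without AVC E10 replicate 1, where 9.57% of all genes were called, the count of calls went from 2 to 4, with Col1a2 (adjusted p = 0.0353) and Col5a2 (1.30, adjusted p = 0.0166) added. When LV E10 replicate 1 was left out as well, 4 were called and 18.3% of all genes.

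**Figure D1:**
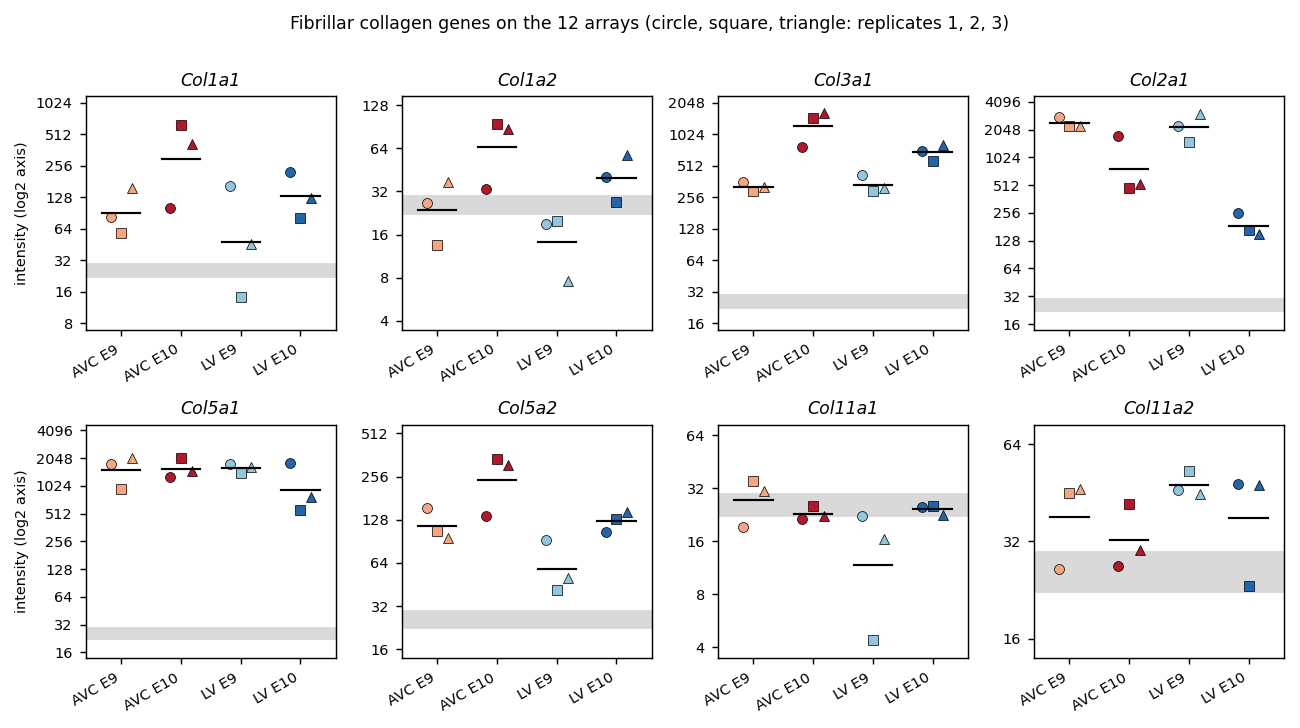
Intensity of the 8 fibrillar collagen genes on each array, on log2 axes that differ between panels; circles, squares and triangles are replicates 1, 2 and 3, bars are the mean of the 3 log2 values, and the grey band spans the background limits of 22.4 to 29.6. Col2a1 runs from 2221 or more on AVC E9 to 256 or less on LV E10, Col3a1 lies higher on all 6 arrays at E10 than on any at E9, and Col11a1 lies in or under the band on most arrays.

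Col2a1 encodes the chain of type II collagen. On the AVC E9 arrays it read 2779, 2259 and 2221, and on the LV E9 arrays 2247, 1501 and 3002. On the AVC E10 arrays it read 1766, 474 and 532, and on the LV E10 arrays 256, 167 and 153. At E9 the tissues overlapped, at E10 every LV array lay below every AVC array, and in both tissues every E10 array lay below every E9 array of that tissue. AVC E10 replicate 1, which resembled an E9 array across all genes, read far above its fellow replicates.

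In LV, Col2a1 was 11.6-fold lower at E10, the call of that comparison (log2 difference -3.53 ± 0.49 SE, 95% interval -4.66 to -2.41, adjusted p = 0.0190 by limma). In AVC the difference was -1.66 ± 0.49 and did not pass (adjusted p = 0.198). Without AVC E10 replicate 1 it became -2.26 with adjusted p = 0.0156. That fit called 2.44% of all genes for age in AVC, against 0.551% with all arrays. The tissue by age interaction was 1.88 (95% interval 0.28 to 3.47, adjusted p = 0.937), so a difference between the tissues in the size of the fall was not shown. Between tissues at E10, Col2a1 was 4.09-fold higher in AVC (2.03 ± 0.49) without passing (adjusted p = 0.0847), and with both set-apart E10 arrays left out it was 1.65 with adjusted p = 0.0429. The LV call was lost, with adjusted p from 0.0518 to 0.0817, when LV E9 replicate 1 or 3 or LV E10 replicate 2 or 3 was left out, at differences of -3.51 to -3.30, and it had adjusted p = 0.0577 when only the LV groups were fitted.

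The array carried 3 probes for Col2a1, each above background on all 12 arrays. The other probes read 1667 to 2059 and 1191 to 1548 on AVC E9, 354 to 1188 and 289 to 879 on AVC E10, 1283 to 2148 and 853 to 1735 on LV E9, and 102 to 234 and 91.0 to 154 on LV E10. All 3 probes put the group means in the order AVC E9, LV E9, AVC E10, LV E10 from high to low, and the averaged difference with age was -2.68 and -2.55 for the additional probes beside -2.60 for the probe used (limma, adjusted p = 0.00715 and 0.00602). All of them showed AVC E10 replicate 1 well above its fellow replicates.

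Col3a1 encodes the only chain of type III collagen. It read 359, 295 and 318 on AVC E9 and 418, 291 and 317 on LV E9, where the tissues overlapped. It read 771, 1472 and 1633 on AVC E10 and 699.9, 572 and 813 on LV E10. In each tissue all 3 E10 arrays lay above all 3 E9 arrays. Within AVC E10, replicate 1 was again the array nearest to E9, and it lay within the LV E10 range.

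In AVC, Col3a1 was 3.80-fold higher at E10 than at E9 (log2 difference 1.93 ± 0.28 SE, 95% interval 1.28 to 2.57, adjusted p = 0.0353 by limma), the call of that comparison. In LV it was 2.04-fold higher (1.03 ± 0.28), which did not pass, with adjusted p = 0.0962. Without AVC E10 replicate 1 the LV value had adjusted p = 0.0290, since the spread is shared by all groups. Between tissues at E10 the difference was 0.84 ± 0.28 (adjusted p = 0.205), and 1.17 (adjusted p = 0.0332) without AVC E10 replicate 1. The interaction was 0.90 (95% interval -0.01 to 1.81, adjusted p = 0.937). The call in AVC was lost without any of AVC E9 replicates 1 to 3, AVC E10 replicates 2 and 3, LV E9 replicates 2 and 3 or LV E10 replicates 2 and 3, with adjusted p from 0.0540 to 0.141, and the difference stayed between 1.72 and 2.26 in those fits and in that without AVC E10 replicate 1. Fitting only the AVC groups also ended the call (adjusted p = 0.183).

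A further probe for Col3a1 was dimmer and was above background on 5 arrays. It read -1.19, 3.40 and 2.42 on AVC E9 and -0.738, 8.43 and -0.796 on LV E9, so it was not above background on any E9 array. It read 45.5, 159 and 115 on AVC E10 and 22.8, 38.8 and 66.1 on LV E10. The E10 arrays of each tissue lay above its E9 arrays with this probe as well. No fold is given for it because the E9 values lie at background.

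**Figure D2:**
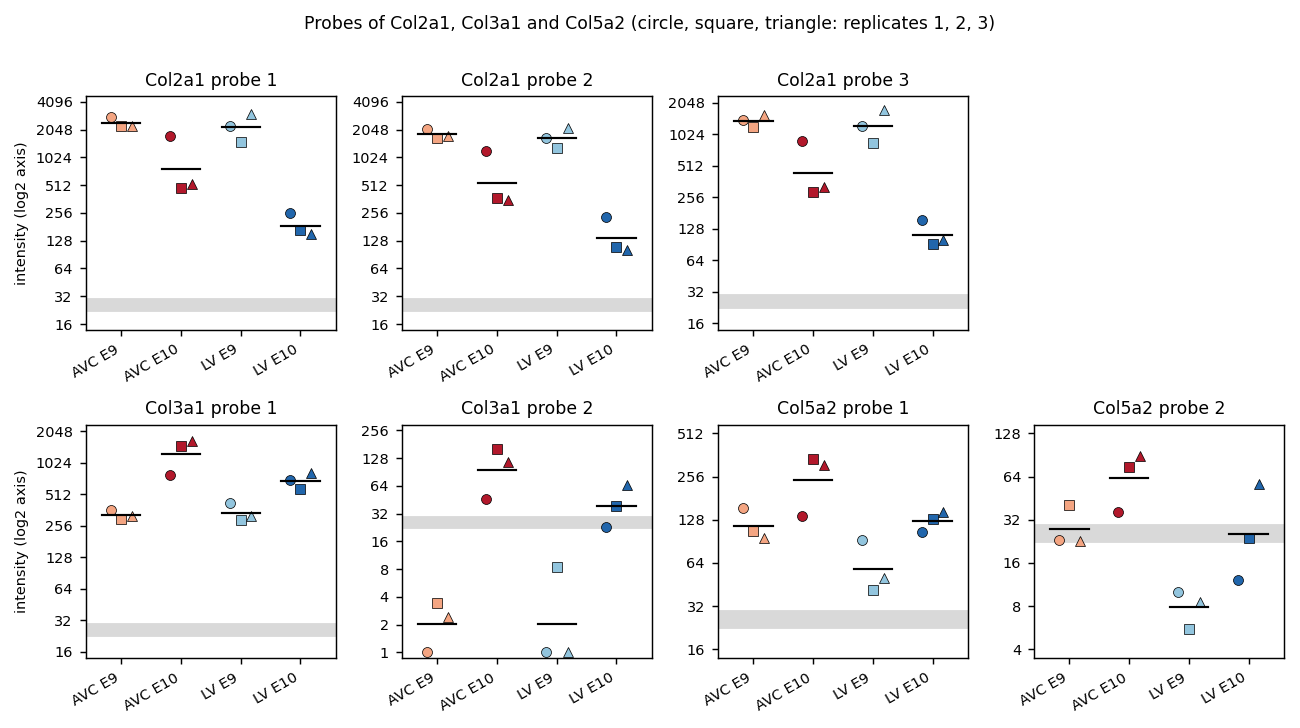
Intensity of every probe of Col2a1, Col3a1 and Col5a2 that was above background on at least 1 array, on log2 axes that differ between panels; symbols are replicates 1, 2 and 3, bars the mean log2 value, the grey band the background limits of 22.4 to 29.6, and values under 1 are drawn at 1. The 3 Col2a1 probes show the same order of groups, with AVC E10 replicate 1 (circle) above the others of its group, and both Col3a1 probes lie higher at E10.

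Type I collagen is built from the chains of Col1a1 and Col1a2. Col1a1 read 83.2, 58.0 and 156 on AVC E9 and 100.4, 621 and 413 on AVC E10. It read 163, 14.3 and 45.9 on LV E9 and 222, 81.6 and 125 on LV E10. The groups overlapped in every comparison, and the replicates of LV E9 spanned from below background to a level above AVC E9 and 2 LV E10 arrays. Its SE was 0.98 in each comparison of 3 arrays with 3, the widest of the 8 genes. The difference with age was 1.70 in AVC (95% interval -0.53 to 3.93, adjusted p = 0.572) and 1.47 in LV (-0.76 to 3.69, adjusted p = 0.471, limma). With both set-apart E10 arrays left out it was 2.48 in AVC (adjusted p = 0.252) and 1.09 in LV (0.576), and the tissue difference at E10 went from 1.17 (0.684) to 2.33 (0.351).

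Col1a2 lay near background. It read 26.7, 13.6 and 37.4 on AVC E9 and 33.4, 94.3 and 87.4 on AVC E10, where all 3 arrays were above background. It read 18.9, 20.0 and 7.62 on LV E9, where no array was above background, and 40.4, 26.8 and 57.6 on LV E10, where all 3 were. The LV groups did not overlap and the AVC groups did. Because LV E9 had no array above background, Col1a2 is given as at least 1.48-fold higher in LV E10 than in LV E9 (fitted adjusted p = 0.207 by limma). In AVC the log2 difference with age was 1.45 ± 0.58 (adjusted p = 0.351), and 1.93 (0.152) with both set-apart E10 arrays left out. On AVC E10 replicate 1 both type I chains read lower than on replicates 2 and 3.

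Type V collagen was represented by Col5a1 and Col5a2, whose chains join in the same triple helix. Col5a1 read 1746, 958 and 2055 on AVC E9 and 1263, 2070.5 and 1492 on AVC E10. It read 1750.3, 1402 and 1655 on LV E9 and 1812, 560.0 and 766 on LV E10. All groups overlapped, and within LV E10 replicate 1 stood apart at the level of the E9 arrays. The difference with age was 0.06 in AVC (95% interval -0.96 to 1.08) and -0.79 in LV (-1.82 to 0.23, adjusted p = 0.394 by limma), and with both set-apart E10 arrays left out it was -1.28 in LV (adjusted p = 0.0589).

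Col5a2 read 154, 106 and 95.6 on AVC E9 and 135, 337 and 307 on AVC E10. It read 91.8, 41.5 and 50.2 on LV E9 and 105, 129 and 145 on LV E10. Every AVC E9 array lay above every LV E9 array, every LV E10 array lay above every LV E9 array, and the AVC E10 arrays overlapped with both neighbours through replicate 1. The differences were alike in size across the design. They were 1.01 (adjusted p = 0.382) and 0.94 (0.356) between tissues at E9 and E10, and 1.06 (0.328) and 1.12 (0.179) with age in AVC and LV. With both set-apart E10 arrays left out, those at E10 and with age were 1.23 (0.171), 1.47 (0.0755) and 1.25 (0.0694). The averaged tissue difference was 0.98 ± 0.29 (adjusted p = 0.105). An additional probe, above background on 7 arrays but on none of LV E9, read 22.7 to 40.3 on AVC E9, 36.4 to 88.3 on AVC E10, 5.58 to 10.1 on LV E9 and 12.1 to 56.5 on LV E10. No difference is given for it because LV E9 lies at background. Of the rest, 2 of the 5 Col5a2 probes read below 0 on every array.

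The type XI genes were at or close to background. Col11a1 read 4.42 to 35.1 over the 12 arrays and exceeded the limit on 3 of them, AVC E9 replicates 2 and 3 and an LV E10 array. Its fitted differences ran from -0.27 to 1.23 in the comparisons of 3 arrays with 3, none past the test. Col11a2 was above background on all 12 arrays but read no more than 52.8. It read 26.3, 45.2 and 46.3 on AVC E9, 26.7, 41.7 and 30.1 on AVC E10, 46.3, 52.8 and 44.9 on LV E9 and 48.1, 23.3 and 47.9 on LV E10. All of its comparisons within a tissue or an age overlapped, with differences of -0.34 to -0.22 and adjusted p of 0.641 or above.

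**Figure D3:**
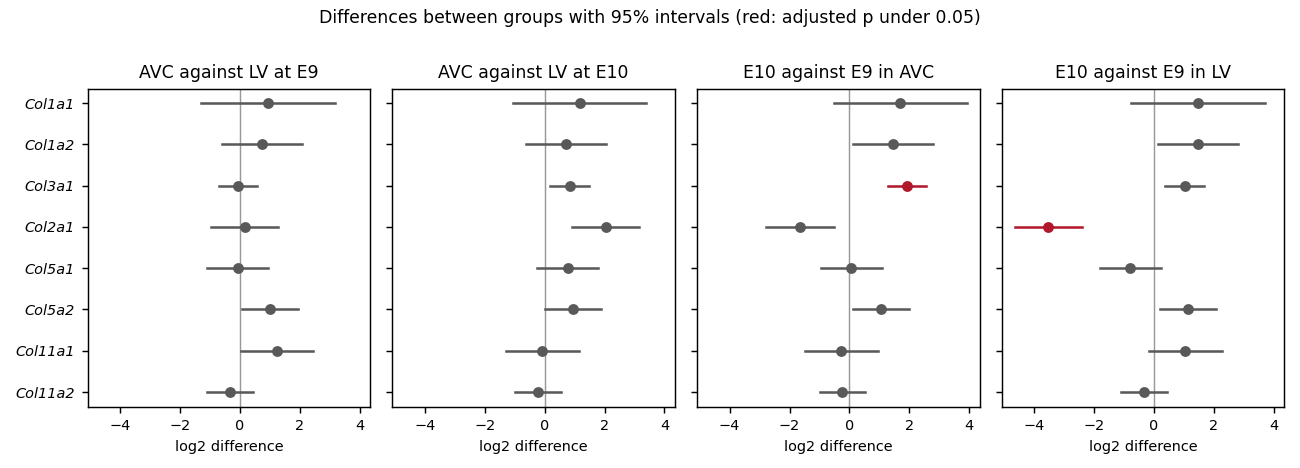
Log2 difference of each gene (points) with its 95% interval from limma (lines) in the 4 comparisons of 3 arrays with 3; red marks an adjusted p under 0.05. Col3a1 in AVC with age (1.93) and Col2a1 in LV with age (-3.53) are the calls, for the tissue comparisons every gene is grey, and the sizes for Col1a2 and Col11a1 against LV E9 rest on a group with no array above background.

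Counted over the whole group, 1 gene was higher and 0 lower with age in AVC, a comparison that called 0.551% of all genes, and 0 were higher and 1 lower with age in LV, which called 2.37%. The arrays of E9 and E10 did not overlap for 2 of the 8 genes in AVC, against 16.2% of all genes, and for 5 in LV, against 20.4%. The 5 in LV were Col1a2, Col3a1, Col5a2 and Col11a1 higher and Col2a1 lower at E10. Of these, Col11a1 had 1 array above background in that tissue. The medians of the 8 log2 differences were 0.56 in AVC and 1.04 in LV, beside 0.00 over all genes in each. Unadjusted p was under 0.05 for 4 genes in each tissue, beside 12.5% of all genes in AVC and 19.6% in LV.

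Between tissues no fibrillar collagen gene passed the limma test at either age. At E9 0 of 8 were called where 1.02% of all genes were, at E10 0 of 8 where 2.3% were, and averaged over both ages 0 of 8 where 5.47% were. The unadjusted p was under 0.05 for 2, 3 and 2 genes, beside 11.5%, 13.9% and 17.7% of all genes. The arrays did not overlap for 1 gene at E9 (Col5a2, higher in AVC), against 17.1% of all genes, and for 1 at E10 (Col2a1, higher in AVC), against 15.8%. The members' medians were 0.45 at E9, 0.81 at E10 and 0.65 averaged, beside 0.00, 0.07 and 0.06 over all genes. Averaged over both ages, 7 of the 8 differences were positive. With both set-apart E10 arrays left out, Col2a1 and Col3a1 were called higher in AVC at E10 (1.65 and 1.18, adjusted p = 0.0429 and 0.0467), where 3.62% of all genes were. The tissue by age interaction called 0 of 8 genes and 0.0315% of all genes, and 1 of the 8, Col2a1, had an unadjusted p under 0.05.

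Ordered by level, Col1a1, Col1a2 and Col5a2 ran AVC E10, LV E10, AVC E9, LV E9 from high to low. Col3a1 ran AVC E10, LV E10, LV E9, AVC E9, and Col2a1 ran AVC E9, LV E9, AVC E10, LV E10. For none of the 8 genes did a pair of groups next to each other in its order differ past the test, with adjusted p of 0.0847 or above. Groups farther apart did. AVC E10 exceeded LV E9 for Col3a1 (1.86, adjusted p = 0.00670) and Col5a2 (2.06, adjusted p = 0.0183), in a comparison that called 9.74% of all genes. AVC E9 exceeded LV E10 12.9-fold for Col2a1 (3.69, adjusted p = 0.00926), in one that called 3.04%.

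Across the 12 arrays the genes did not share a profile. Among the 5 above background on every array, the log2 levels of Col3a1 and Col5a2 had r = 0.837, and these are neighbours on chromosome 1 with 0 annotated genes between them. Col2a1 had r = -0.631 with Col3a1 and 0.507 with Col5a1. The type V partners Col5a1 and Col5a2 had r = 0.01. These correlations are descriptions over arrays of 4 groups that differ in tissue and age. Of 8335 further genes above background on all arrays, the profiles nearest to Col2a1 were those of Atp2a2, which encodes the calcium pump of the sarcoplasmic reticulum (r = 0.990), Sdad1 (0.977) and the glutamate transporter gene Slc1a3 (0.975). Nearest to Col3a1 were Fosl2, a subunit gene of the factor AP-1 (0.965), the TGF-beta receptor gene Tgfbr2 (0.959) and Ehd2 (0.957). Nearest to Col5a2 were the gelatinase gene Mmp2 (0.962), Lhfp (0.960) and Mdfic (0.952), and nearest to Col5a1 were the VEGF receptor gene Flt1 (0.966), Ntn3 (0.956) and Klf7 (0.950). Col11a2, close to background, had Hba-x as its nearest, with r = 0.771, then Guk1 (0.758) and Eif3l (0.753). The mean profile of the 5 genes was nearest to Tshz3 (0.899), Tenm4 (0.861), Col18a1 (0.859), Agrn (0.848), Tcf4 (0.846) and Lrig3 (0.842), and farthest from Ndufaf7 (-0.863), Mrps18a (-0.858) and Lrrc39 (-0.833).

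The genes that modify, export, process, cross-link, bind or regulate fibrillar collagen were taken as lists of 95 genes, of which 86 were measured and 69 were above background on at least 1 array. With age averaged over both tissues, 16 of the 86 were higher, 2 lower and 68 not past the limma test, that is 20.9% called beside the 8.1% of all genes, with a median of 0.12. Of the 9931 genes above background on all arrays of some group, tested and adjusted on their own, 21.1% were called. The gap between 20.9% and 8.1% is therefore not read as an excess. With both set-apart E10 arrays left out 19 were higher and 7 lower, where 18.3% of all genes were called. In AVC alone 2 were higher, where 0.551% of all genes were called, and in LV alone 7, where 2.37% were, with 0 lower in each. The genes above background, tested on their own, gave 2.02% in AVC and 9.72% in LV. Without the set-apart arrays 13 were higher in AVC, where 5.24% of all genes were called, and 11 higher and 7 lower in LV, where 14% were. Between tissues 3 were higher in AVC and 1 lower at E9 (4.65% of the 86, against 1.02% of all genes). At E10 these were 8 and 1 (10.5% against 2.3%), and averaged over both ages 13 and 1 (16.3% against 5.47%). Among genes above background, tested on their own, 3.05%, 6.22% and 13.4% were called in these comparisons. Fkbp10, Adamts2, Loxl2, Col6a3, Col12a1, Fbn1, Fbn2, Itga10 and Runx2 of these lists were not analysed here.

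Genes that bind to or lie along fibrils held 6 of those higher with age, of 16 measured. The averaged comparison called 8.1% of all genes, and 21.1% of those above background when tested on their own. Dcn, the proteoglycan decorin that coats fibrils, read 215 ± 82.4 on AVC E9 and 2376 ± 1083 on AVC E10 (SD, n = 3), and 172 ± 133 and 2429 ± 1096 on LV (averaged log2 difference 3.74, adjusted p = 0.00732 by limma). Col16a1, a fibril-associated collagen gene, differed by 3.06 and was called in AVC (3.32) and in LV (2.80). The biglycan gene Bgn differed by 2.13, Col6a1 by 1.46 and the collagen-binding glycoprotein gene Sparc by 0.86. Fmod, the fibromodulin gene, was called at 7.15 ± 5.32 on LV E9, where no array was above background, and 71.4 ± 39.8 on LV E10. Col9a3, whose type IX chain decorates type II fibrils, was the member called lower with age, at -0.72, and was higher in AVC than in LV at E10 (2.04). Col9a1, its partner chain gene, was higher in AVC averaged over both ages (3.56), with 1 LV E9 array above background. Col14a1 and Tnxb were not above background on any array.

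Cross-linking genes were called with age averaged over both tissues in 2 of 4 cases, beside 8.1% of all genes. Among genes above background, tested on their own, that share was 21.1%. Loxl1, a lysyl oxidase gene, read 430.4 ± 140.3 on AVC E9 and 1639 ± 306 on AVC E10, and 414 ± 154 and 1697 ± 575 on LV (called with age averaged over both tissues, limma adjusted p = 0.00708). Lox, the founding lysyl oxidase gene, read 10.9 ± 16.9 and 169.9 ± 136 on AVC, and 2.48 ± 8.52 and 89.8 ± 49.9 on LV, with 6 arrays above background. Its adjusted p was 0.0485 and its fold depends on values at background. Loxl3 was not above background on any array, and Loxl4 did not pass.

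**Figure D4:**
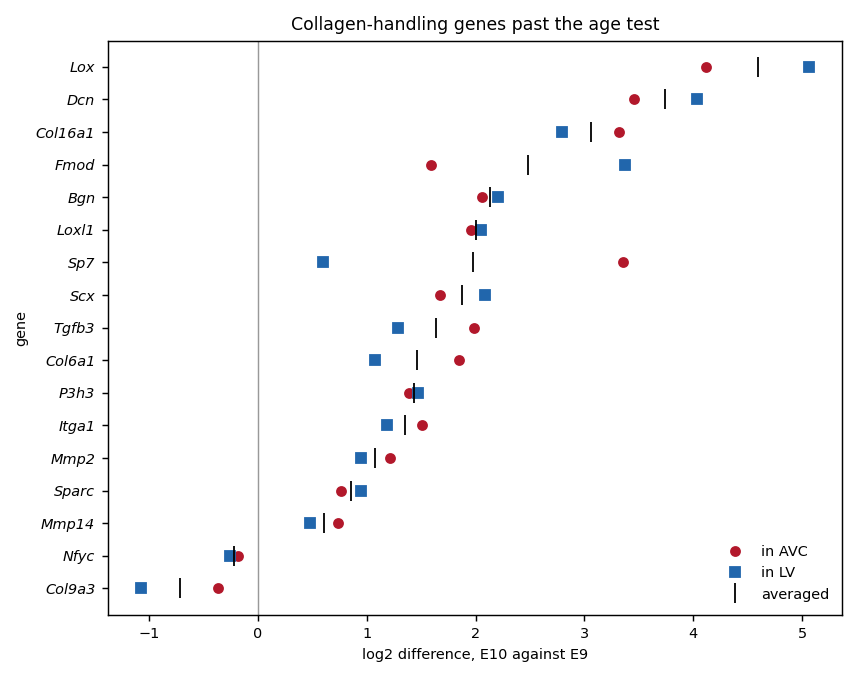
Log2 difference between E10 and E9 in AVC (red circles), in LV (blue squares) and averaged (black ticks) for the genes of the collagen-handling lists past the averaged age test and above background on at least 1 array. Lox, Sp7 and Fmod have groups at background, so their positions depend on the floor of 1. Of the 17 genes 15 lie to the right of 0 in both tissues, with Col9a3 and Nfyc to the left.

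Among 15 genes of prolyl and lysyl modification, P3h3, a partner of the lysyl hydroxylase complex, was higher at E10 in AVC (312 ± 45.7 against 120.1 ± 27.8, log2 difference 1.39) and in LV (177 ± 32.3 against 63.4 ± 6.25, 1.47). The other call with age in this list, P4ha3, was for a probe not above background on any array. Between tissues P3h2, a prolyl 3-hydroxylase gene, was lower in AVC at E9 (-1.35) and at E10 (126 ± 19.6 against 249.9 ± 23.0, adjusted p = 0.0436), and the lysyl hydroxylase gene Plod1 was higher in AVC at E10 (0.81). Plod2 was higher in AVC averaged over both ages (0.59). None of the 13 folding and export genes was called with age, and Mia2 among them was not above background on any array. The collagen chaperone gene Serpinh1, named here after its values were seen, read 12827 ± 1533, 12539.6 ± 870.3, 14158 ± 1126 and 11999 ± 613 on AVC E9, AVC E10, LV E9 and LV E10. Creb3l2 of this list was higher in AVC averaged over both ages (0.56).

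Of 8 propeptide-processing genes, 4 were above background on some array and Furin, a proprotein convertase gene, was called, higher in AVC at E9 (0.83) and at E10 (1.44). Tll1, Tll2, Adamts3 and Adamts14 were not above background. In the receptor list Itga1, which encodes an integrin chain that binds collagen, was higher with age (1.35). Ddr2, Itga2, Mrc2 and Lair1 were not above background on any array. Of 6 protease genes Mmp2 (1.08) and Mmp14 (0.60) were higher with age, and Mmp14 was higher in AVC at E10 (1.09), while Mmp8 and Mmp13 were not above background. Of the other fibrillar collagen genes, Col24a1 was not above background on any array and Col27a1 read 22.8 to 50.5 with no call.

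Among 14 regulators of collagen transcription, Sox5, a partner of Sox9 at the Col2a1 gene, was higher in AVC at E9 (218 ± 55.8 against 49.9 ± 17.1, log2 difference 2.15) and at E10 (2.33), and Sox9 was higher averaged over both ages (2.02). Sox6 was not above background. The ligand gene Tgfb2 was higher in AVC at E9 (1.81) and at E10 (1192 ± 228 against 296 ± 23.7). Scx, the tendon regulator scleraxis, was higher with age (1.88, and 2.09 in LV alone), as was Tgfb3 (1.64), and Nfyc, a subunit of NF-Y, was lower by a small amount (-0.22). Sp7 was called higher with age and in AVC, on 2 arrays above background. Sox9 and Sox5 did not pass the test with age in either tissue.

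Markers of other cell types were read beside the age differences averaged over both tissues, a comparison that called 8.1% of all genes. Of 6 measured genes of epicardium and proepicardium, 4 were higher at E10, and their summed level was 602 to 858 on AVC E9, 4867 to 5462 on AVC E10, 318 to 921 on LV E9 and 2954 to 6679 on LV E10. Upk3b differed by 3.40, Tcf21 by 3.12 and Upk1b by 2.04, and Aldh1a2 was above background on all 6 E10 arrays and no E9 array, so its call has no fold. Tbx18 did not pass, Sema3d was not above background, and Wt1 was not analysed here. The part of these epicardial genes in the rise of Col3a1 was not tested. Of 7 endothelial genes 4 were higher at E10, with summed levels of 2395 to 3602, 4527 to 5802, 2939 to 3384 and 4651 to 6349 in the order AVC E9, AVC E10, LV E9, LV E10, and their part was not tested either. Kdr of this list was not above background on any array. The cushion mesenchyme sum was 5428 to 7149 and 8050 to 9122 on AVC, and 1502 to 1979 and 1345 to 2362 on LV, with 2 of 11 genes higher and 1 lower with age.

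Beside the fall of Col2a1, the summed level of 7 foregut endoderm genes was 2825 to 4926 on AVC E9, 782 to 2456 on AVC E10, 1416 to 3175 on LV E9 and 848 to 1767 on LV E10. None of them was called in the limma fit, and Foxa1, Foxa2, Epcam and Shh of that list were not above background on any array. The sum therefore rests on Cdh1, Krt8 and Krt18 and is not read as a level of endoderm. For notochord, which makes much type II collagen, Shh, Noto and Foxa2 were not above background on any array, and T was not analysed here. The sum of the 4 measured genes was 215 to 311, 116 to 352, 253 to 395 and 131 to 429. Krt19 alone of the 4 was above background, so the sum is not read as a level of notochord. For neural crest and cartilage, Foxd3, Matn1 and Comp were not above background, and the sum of 8 genes was 79.2 to 238, 127 to 541, 87.7 to 92.1 and 94.4 to 171 in the same order of groups. Sarcomere genes had 0 calls of 5 with age and erythroid genes 0 of 5.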

How the data were processed

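The values deposited by the authors are bead array intensities on a linear scale, background-subtracted and scaled to a common mean per array; the methods name Genespring GX for the analysis, and whether it made these values was not given in the sources used here. Values under 1 (36.8% of all) were set to 1 before log2. The 4 group means were fitted over all 45281 probes with limma 3.58.1 in R 4.3.3 (with statmod 1.5.0), two-sided, with Benjamini-Hochberg adjustment over 19057 genes per comparison and calls at an adjusted p under 0.05. The fit was tested on simulated data. Whether replicates came from separate litters is not given, so p-values speak only to the spread among these arrays, possibly a technical one. The members and lists were chosen with earlier results of these data known. Named from the lists were the called genes, up to 6 a list and comparison, and otherwise genes by alphabet or without a probe above background. Of the listed symbols Ctgf was read as Ccn2. For a group with no array above background, "at least" folds used the higher of its own value and the lowest signal above background. Alternatives were normalization, floor, offset, filter, probe, prior trend, replicate block, groups fitted, array weights, single arrays and the study's thresholds, and, chosen after seeing the data, leaving out both set-apart E10 arrays.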

Additional observations from a re-analysis of the deposited data

How the results depend on the processing

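The calls of Col2a1 and Col3a1 with age averaged over both tissues held, at an adjusted p under 0.05, in all 24 and 23 refits, at -3.01 to -2.40 and, with the probe used, 1.35 to 1.64, while Col3a1 missed the 4-fold minimum of the study's thresholds. Col2a1 in LV held in 20 of 25 and Col3a1 in AVC in 13 of 24. The counts of called members with age averaged, in AVC, in LV, between tissues at E10 and averaged (2, 1, 1, 0 and 0) became 4, 2, 2, 1 and 2 with an offset of 50, 5, 2, 3, 3 and 1 with array weights, and 4, 2, 2, 2 and 1 with both set-apart arrays left out. In the same order 13.7%, 3.15%, 6.47%, 4.18% and 7.62% of all genes were called with the offset, 27.6%, 10.8%, 21%, 11.2% and 13.7% with array weights, and 18.3%, 5.24%, 14%, 3.62% and 6.98% without the set-apart arrays. Testing only genes above background gave 4 with age averaged and 1 between tissues at E10, where 21.1% and 6.22% of those genes were called. The mean of probes gave 2 in LV and 3 with age averaged, where 2.52% and 8.3% of all genes were. Fitting only the compared groups gave 0 in AVC and 0 in LV, where 0.11% and 0.394% of all genes were called. This setting has no averaged or interaction value. The study's thresholds, taken here as a fold and an unadjusted p-value, gave 1 with age averaged, 0 in AVC and 1 at E10. The gene at E10 was Col2a1, which had adjusted p = 0.0847 by limma. No share of all genes is given for this rule, so its counts are not set against the others. Without single arrays the counts ran from 2 to 4 with age averaged, 0 to 2 in AVC, 0 to 2 in LV, 0 to 1 at E10 and 0 to 1 for tissue averaged. Of all genes 2.91% to 18%, 0.131% to 2.44%, 0.283% to 13.8%, 0.509% to 3.83% and 2.98% to 7.12% were called, in that order. The causes were not tested.

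With the replicate block the AVC count was 0 (Col3a1, adjusted p = 0.0707) and no other member call changed. Same-numbered arrays had correlations of deviations from -0.366 to 0.524 (median 0.10, 9 of 18 pairs over 0.1), beside a median of -0.08 and 9 of 36 for differently numbered ones, so not every pair passed 0.1 and the numbers were not taken to pair the samples. As a hint from the data only, every array correlated best with its own number between AVC E9 and LV E9 and between AVC E10 and LV E9, but not between the other groups. The block moved the calls over all genes from 195 to 134 at E9, 438 to 419 at E10, 105 to 66 for age in AVC and 452 to 794 in LV.

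Signs changed for differences near 0, and the range over single left-out arrays is given beside each. For tissue at E9, Col2a1 was -0.11 without LV E9 replicate 2 (up to 0.39), Col3a1 0.0011 and 0.089 without AVC E9 replicate 2 and LV E9 replicate 1 (down to -0.17), and Col5a1 0.11 with array weights and 0.25 without AVC E9 replicate 2 (down to -0.30). Col5a1 with age in AVC was -0.18 with array weights and -0.27 and -0.14 without AVC E9 replicate 2 and AVC E10 replicate 2 (up to 0.28). Col11a2 at E10 was 0.047 with array weights, 0.088 without the set-apart arrays and 0.087 with its other probe, which gave 0.067 with age in AVC, and it was 0.0038 with age in LV without LV E10 replicate 2 (down to -0.52).

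Over all genes the 105 calls for age in AVC became 63 with quantile normalization, 600 with the offset, 201 with only genes above background, 182 with a floor of 16, 2050 with array weights, 21 with only the compared groups and 25 to 465 without single arrays. The 452 in LV became 1233, 965, 3997 and 75 with the offset, the filter, array weights and only the compared groups, and 54 to 2630 without single arrays. With 3 arrays a group Col1a1 had the widest errors, and Col1a2 and Col11a1 had no LV E9 array above background.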
